A study of Mus musculus with 2 samples.

Results

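Genes of the JAK-STAT pathway, 9 in all, were followed across the cell types of mouse dorsal skin: the 4 Janus kinases Jak1, Jak2, Jak3 and Tyk2, the transcription factors Stat3 and Stat5a, and the feedback genes Socs1, Socs3 and Cish. They were chosen by symbol, as 9 of the 33904 genes in both count matrices, because the study tested MDI1228, a topical inhibitor of all Janus kinases, and the data can show which cells carry the RNA of its targets. Skin treated with that drug was not analysed here. The data came from 1 control library (Ctrl) and 1 library of an atopic dermatitis model (AD), both taken on day 10 from the dorsal skin of female C57BL/6J mice of 7 weeks whose back had been depilated. Ctrl skin received 100% ethanol once a day, and AD skin received MC903 (calcipotriol, a vitamin D analogue that irritates skin) in ethanol at 4.5 nmol per application once a day. The mice of both groups carried no engineered allele that the labels name, and the number of mice behind a library was not named.

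Cytokines bind paired receptor chains that carry Janus kinases on their inner side. The kinases phosphorylate the receptor and the STAT proteins that dock there, which then enter the nucleus and switch on genes. Among those genes are the SOCS family members, including Cish, whose proteins bind the receptors or kinases and damp the signal, so their RNA is often read as a trace of recent STAT activity. In skin, JAK1 and JAK3 sit on receptors with the common gamma chain, JAK1, JAK2 and TYK2 serve the gp130 receptors of the interleukin 6 group, and JAK2 serves the growth hormone and beta common chain receptors. STAT3 is known mainly from the interleukin 6 group and from keratinocyte activation, and STAT5A from interleukins 2 and 7, thymic stromal lymphopoietin and growth hormone.

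The Ctrl library held 12598 barcodes with 125184653 UMIs (distinct transcript molecules), and the AD library held 8778 barcodes with 76106062 UMIs. Cells with 200 to 6000 detected genes and at most 10% mitochondrial UMIs were kept, 11399 in Ctrl with a median of 7813 UMIs and 8179 in AD with a median of 6330 UMIs. The libraries shared 29 barcodes among the kept cells. A cell was assigned to a type when it expressed enough of that type's marker genes, none of which belongs to the pathway. Cells whose best marker list did not stand clear of another type's list, 9.11% in Ctrl and 3.53% in AD, were left out as mixed, and 6.78% and 17.0% met no gate. Dermal fibroblasts (dFBs) made up 5875 Ctrl and 4497 AD cells, keratinocytes (KCs) 1679 and 368, T cells 470 and 347, macrophages 430 and 191, and blood endothelial cells 179 and 149. Lymphatic endothelial cells (236 and 291), pericytes or vascular smooth muscle cells (207 and 144), Schwann cells (151 and 75) and melanocytes (70 and 74) also had at least 50 cells in both libraries. Langerhans cells (79) and mast cells (128) reached that number in Ctrl alone, and neutrophils (54) and adipocytes (106) in AD alone.

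The defining markers were present in each of these types, with shifts between the libraries. Among dFBs, Dcn was detected in 96.0% of Ctrl and 99.8% of AD cells and Pdgfra in 89.4% and 94.2%, whereas the collagen gene Col3a1 was detected in 99.3% and 54.7%. Among KCs, the basal keratin gene Krt14 was detected in 77.7% and 95.1%, whereas Krt1 and Krt10, keratins of differentiating layers, stood at 30.7% and 3.8% and at 67.1% and 23.1%. Cd3d was found in 86.0% and 87.6% of T cells, Csf1r in 85.6% and 86.4% of macrophages and Pecam1 in 97.8% and 97.3% of endothelial cells. Within T cells, Trac was found in 62.3% and 79.8% and the gamma-delta T cell marker Trdc in 27.7% and 13.3%. T cell ratios therefore compare different mixes of T cells. In the small classes, Cd207 was found in 67.1% of Langerhans cells, Cpa3 in 100.0% of mast cells, S100a8 in 98.1% of neutrophils and Adipoq in 84.0% of adipocytes. Among melanocytes, Dct was found in 100% of Ctrl and 95.9% of AD cells, but Pmel in 92.9% and 48.6% and Tyr in 88.6% and 56.8%. Their median depths were 7103 and 3107.5 UMIs, so the melanocyte gate held unlike cells in the libraries. Levels are given in CPM, UMIs summed over the cells of a type and scaled by the UMI total of those cells, with 95% exact Poisson intervals in brackets, and the brackets behind shares of cells are 95% exact Clopper-Pearson intervals. Ratios are log2 of AD over Ctrl with 1 CPM added to each level, and their brackets give the 95% exact conditional binomial interval of the ratio of counts. Shares after thinning leave out cells under 1000 UMIs, which were 88 Ctrl and 53 AD dFBs, 22 and 25 KCs, 0 and 0 T cells, 15 and 9 macrophages and 4 and 2 endothelial cells. Jak3 apart, no cell type here is known to lack the genes, so no share gives their background. With 1 library per group no test was possible, the intervals cover counting error only, and an effect of MC903 cannot be told apart from a difference between the 2 libraries.

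The genes lie on 6 chromosomes in GENCODE M21 (GRCm38): Jak1 at chr4:101152367-101265282, Jak2 at chr19:29251828-29313080, Jak3 at chr8:71676296-71690575, Tyk2 at chr9:21104068-21131243, Stat3 at chr11:100885098-100939540, Stat5a at chr11:100859351-100885169, Socs1 at chr16:10782240-10785536, Socs3 at chr11:117966079-117970047 and Cish at chr9:107296026-107302784. Stat3 and Stat5a are neighbours that converge and share 72 bases on opposite strands. Jak3 shares 1362 bases at its 3′ end with Insl3 on the same strand, where reads from a 3′ library can belong to both genes. Insl3 itself had 0 UMIs in Ctrl and 1 in AD, and the effect of the overlap on Jak3 counts was not tested.

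Promoter sequences of the 3 feedback genes are shown because STAT proteins are known to switch these genes on and because Socs3 among them differed most between the libraries. STAT dimers bind the palindrome TTCNNNGAA, which reads the same on both strands. It occurred in 8.3% of 32851 RefSeq promoter windows (GRCm38.p6, 250 bases before to 50 bases after the start) and in 2 of the 10 windows of the 9 genes, those of Socs3 and Cish, while the form with its arms 1 base farther apart occurred in 6.95% of all windows and in 0 of these 10. The starts used here are those of RefSeq, which lie inside the GENCODE genes given above for Socs3 and Cish, because GENCODE lists transcripts that begin farther upstream. Capitals mark the matches in the 250 bases before the RefSeq start of Socs3 (chr11:117969367-117969616, minus strand) and Socs1 (chr16:10785537-10785786, minus strand), and in 30 bases across the RefSeq start of Cish (chr9:107296654-107296683, plus strand).
Socs3: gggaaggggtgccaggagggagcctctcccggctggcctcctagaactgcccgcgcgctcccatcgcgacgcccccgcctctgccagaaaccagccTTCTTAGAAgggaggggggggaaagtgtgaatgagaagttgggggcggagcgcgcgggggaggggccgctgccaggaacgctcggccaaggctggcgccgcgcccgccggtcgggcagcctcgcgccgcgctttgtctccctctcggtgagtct
Socs1: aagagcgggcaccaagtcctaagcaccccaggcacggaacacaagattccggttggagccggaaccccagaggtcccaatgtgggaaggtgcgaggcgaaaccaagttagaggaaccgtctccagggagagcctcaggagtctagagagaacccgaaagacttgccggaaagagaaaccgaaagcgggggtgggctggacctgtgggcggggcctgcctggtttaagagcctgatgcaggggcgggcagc
Cish: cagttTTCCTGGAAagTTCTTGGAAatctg
The Socs3 match begins 154 bases before the RefSeq start, at chr11:117969512-117969520, and the pair in Cish covers bases 1 to 9 and 12 to 20 counted from the RefSeq start, at chr9:107296659-107296667 and chr9:107296670-107296678. The Socs1 stretch holds no match to these letters. The stretches are 71.6% G or C for Socs3 and 61.2% for Socs1, and a match of letters is a description of the window, not a measured binding site.

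Jak1, which serves most cytokine receptor families, was found in all 22 classes formed by a cell type of at least 50 cells in a library. Its level in Ctrl was highest in T cells at 454 CPM (424 to 487), above endothelial cells at 341 CPM (310.3 to 375), dFBs at 322 CPM (317 to 327) and mast cells at 316 CPM (253 to 389), whose intervals overlapped with one another. Lymphatic endothelial cells (273 CPM), macrophages (247 CPM) and pericytes or vascular smooth muscle cells (229 CPM) came next without a gap. KCs at 149.7 CPM, Schwann cells at 122 CPM, Langerhans cells at 105 CPM and melanocytes at 89.9 CPM formed the low end. The highest class thus exceeded the lowest by 5.05-fold in Ctrl and by 4.2-fold in AD. The lowest class in AD was adipocytes, which had under 50 cells in Ctrl.

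In AD the order of Jak1 differed at the top. Endothelial cells stood first at 498 CPM (463 to 535), clear of dFBs at 343 CPM (337 to 349), lymphatic endothelial cells at 332 CPM, pericytes at 322 CPM and T cells at 318 CPM (297 to 341). T cells were the one of the 5 main types in which Jak1 was lower in AD with an interval clear of 0, by a log2 ratio of -0.51 (-0.66 to -0.37). Endothelial cells had a log2 ratio of 0.54 (0.37 to 0.72), whereas dFBs at 0.09 (0.06 to 0.12), KCs at 0.06 (-0.05 to 0.17) and macrophages at -0.04 (-0.24 to 0.15) stood close to 0. Jak1 RNA was therefore widespread in both libraries, and dFBs, the most numerous type, held 65.6% of its UMIs in Ctrl and 65.3% in AD. Of the UMIs of all genes in kept cells, dFBs held 55375295 of 105195951 in Ctrl and 36329434 of 61645227 in AD. A Jak1 UMI was found in 69.1% of Ctrl KCs, which were deeply covered (median 14073 UMIs). With each cell thinned to 1000 UMIs the share was 12.9% (11.3 to 14.6) of Ctrl KCs, 36.4% (32.0 to 40.9) of Ctrl T cells and 25.6% (24.4 to 26.7) of Ctrl dFBs.

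**Figure D1:**
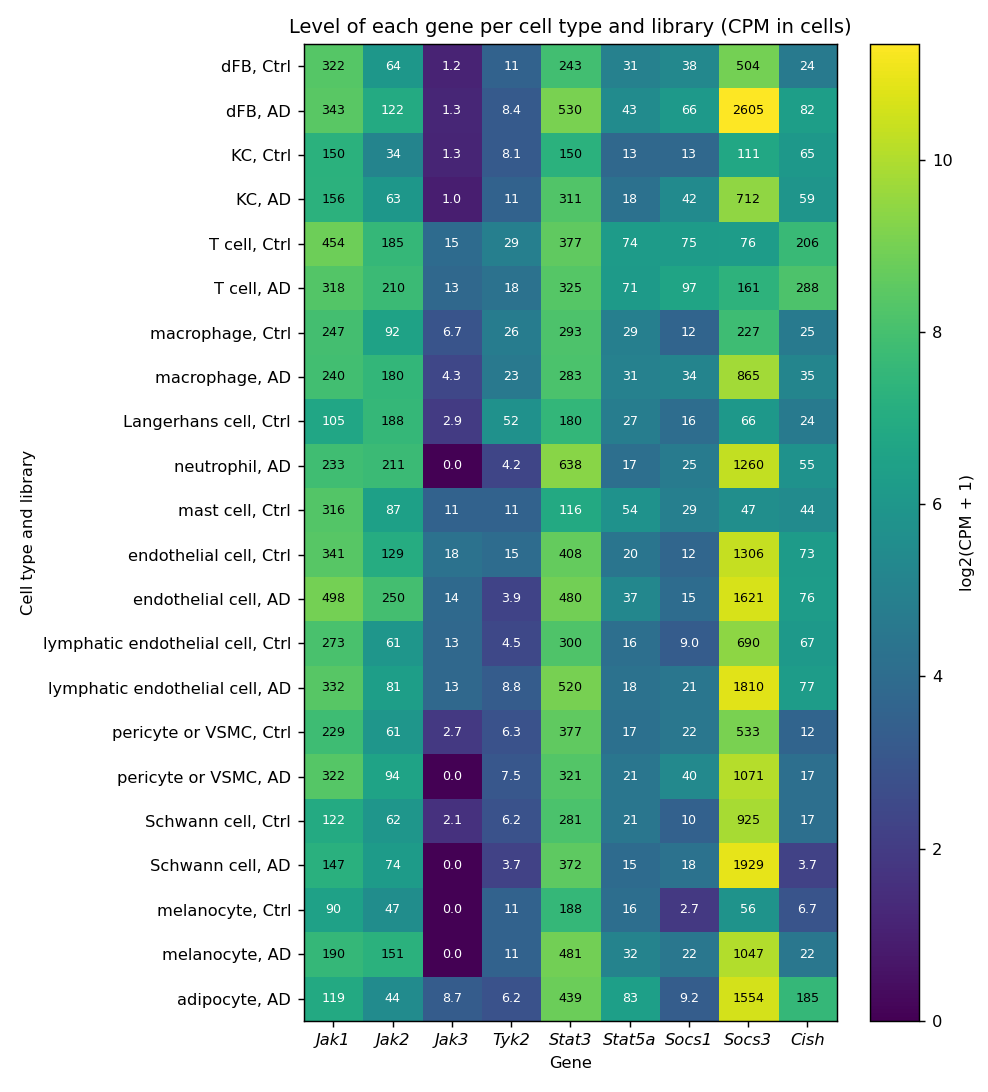
Level of each gene (columns) in each cell type and library (rows) as CPM printed in the cells, with the colour giving log2(CPM + 1) on 1 scale for all genes. Jak1, Stat3 and Socs3 were found throughout, Jak3 and Tyk2 were low throughout, Cish was highest in T cells, and Socs3 was highest in AD dFBs at 2605 CPM.

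Jak2, the kinase of the growth hormone, erythropoietin and beta common chain receptors, had another distribution. In Ctrl, Langerhans cells at 188 CPM (157 to 223) and T cells at 185 CPM (166 to 206) stood first, above endothelial cells at 129 CPM (110.3 to 150.2), macrophages at 92.2 CPM (79.6 to 106) and dFBs at 64.1 CPM (62.0 to 66.2). KCs were last at 34.3 CPM (32.0 to 36.7). Leukocytes and blood endothelium thus held the higher levels of Jak2 in Ctrl skin.

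In AD, Jak2 was higher in most types. dFBs held 122 CPM with a log2 ratio of 0.91 (0.86 to 0.99), KCs 63.1 CPM with 0.86 (0.69 to 1.07) and endothelial cells 249.6 CPM with 0.95 (0.69 to 1.22). Macrophages stood at 180.0 CPM with a ratio of 0.96 (0.70 to 1.24), but that ratio was -0.05 when macrophages were taken from clusters in place of gates. T cells differed least of the 5 main types, at 210.3 CPM with a ratio of 0.18 (-0.01 to 0.39), so that AD endothelial cells, neutrophils (211 CPM, 157 to 279), T cells, macrophages, melanocytes (151 CPM) and dFBs followed one another with overlapping intervals. Melanocytes had the largest Jak2 ratio of the 9 types found in both libraries, 1.66 (1.00 to 2.37), on 35 and 42 UMIs. That ratio comes from a gate whose markers shifted between the libraries.

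Jak3, the partner of the common gamma chain and known from lymphocytes, was sparse. Ctrl had 242 UMIs and AD 187 in all kept cells. Its level was 14.5 CPM (9.49 to 21.3) in Ctrl T cells and 13.2 CPM (9.15 to 18.5) in AD T cells, on 26 and 34 UMIs. Endothelial cells overlapped with them, at 18.4 CPM (11.8 to 27.4) and 13.8 CPM (8.54 to 21.1), and lymphatic endothelial cells stood at 13.5 CPM and 13.4 CPM. The 3 types could not be ranked, because the intervals of all neighbours in the order overlapped.

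Below these came AD adipocytes at 8.72 CPM (17 UMIs) and macrophages at 6.72 CPM and 4.31 CPM. dFBs at 1.21 CPM and 1.35 CPM and KCs at 1.26 CPM and 0.959 CPM were near the bottom, with intervals that ended at 2.24 CPM or below. A UMI of Jak3 was found in 5.53% (3.65 to 8.0) of Ctrl and 9.22% (6.39 to 12.8) of AD T cells (median 3162 and 6203 UMIs) and in 11.2% and 12.8% of endothelial cells, against 1.12% and 1.05% of the deeper dFBs (median 8657 and 7159 UMIs). After thinning, 1.06% (0.35 to 2.47) and 1.44% (0.47 to 3.33) of T cells and 0.035% and 0.18% of dFBs had a UMI. Free RNA from dFBs would bring 0.02 CPM of Jak3 or less to T cells. Counts of 0 were found in neutrophils, pericytes and Schwann cells of AD and in melanocytes of both libraries. Their 95% upper limits were 15.6 CPM in neutrophils, 3.08 CPM in pericytes, 13.6 CPM in Schwann cells and 4.95 CPM and 13.2 CPM in Ctrl and AD melanocytes. For most small classes Jak3 was thus not measurable at this depth.

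Tyk2, the kinase of the interferon, interleukin 12 and interleukin 23 receptors, was also low. It was highest in Ctrl Langerhans cells at 51.7 CPM (36.2 to 71.6, 36 UMIs), followed by T cells at 29.1 CPM (21.7 to 38.1) and macrophages at 25.9 CPM (19.5 to 33.8). The structural types were lower, with dFBs at 10.9 CPM (10.1 to 11.8) and KCs at 8.14 CPM (7.05 to 9.34). Antigen-presenting cells and T cells therefore led the order, although neighbours in it overlapped in both libraries.

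In AD, macrophages held 22.8 CPM of Tyk2, T cells 18.3 CPM, KCs 10.7 CPM and dFBs 8.4 CPM. dFBs had a log2 ratio of -0.34 (-0.58 to -0.18), and T cells one of -0.64 (-1.27 to -0.07). Endothelial cells had 15.4 CPM on 20 UMIs in Ctrl and 3.94 CPM on 6 UMIs in AD, a ratio of -1.73 (-3.57 to -0.60), but both levels were under the 20 CPM set for counting a gene as 2-fold apart. An antisense gene, 1700084C06Rik, lies across 24326 bases of Tyk2.

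**Figure D2:**
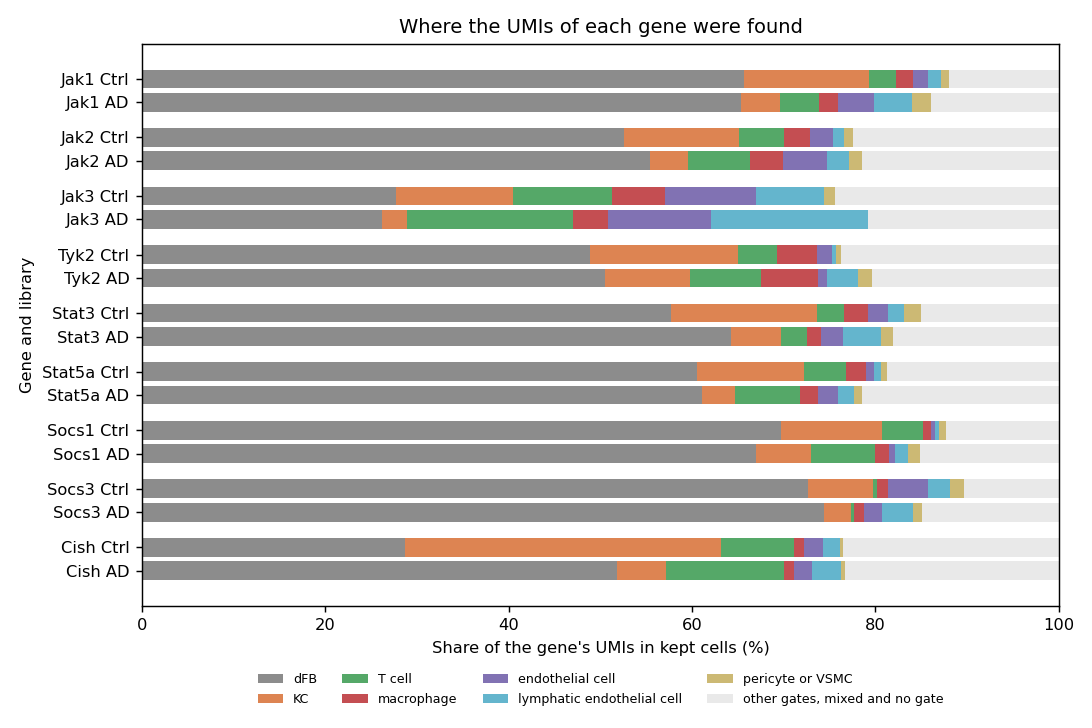
Share of each gene's UMIs among kept cells (x axis, %) held by each cell type, with 1 bar per gene and library and grey for all other or unassigned cells. dFBs held 26.2% to 74.4% of the UMIs of the 9 genes, and KCs held 34.5% of Cish in Ctrl and 5.35% in AD.

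Stat3 was found in every class, from 116 CPM in Ctrl mast cells to 638 CPM (541 to 749) in AD neutrophils. In Ctrl the order began with endothelial cells at 408 CPM (374 to 444), pericytes at 377 CPM and T cells at 377 CPM (349 to 407), and dFBs at 243 CPM (239 to 247) stood below macrophages at 293 CPM (270.1 to 317). In AD, dFBs at 529.7 CPM (522 to 537) stood next after neutrophils and overlapped with lymphatic endothelial cells at 519.5 CPM (491 to 549). Fibroblasts thus stood in the middle of the order in Ctrl and near its top in AD. The highest class was 3.52-fold over the lowest in Ctrl and 2.26-fold in AD.

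The log2 ratio of Stat3 was 1.12 (1.09 to 1.16) in dFBs, 1.05 (0.96 to 1.13) in KCs, where the level went from 150.4 CPM to 311 CPM, and 1.35 (1.00 to 1.71) in melanocytes. In KCs it was 0.75 with all deposited barcodes, below 2-fold. Lymphatic endothelial cells had 0.79 (0.63 to 0.96), whereas T cells at -0.22 (-0.36 to -0.07), macrophages at -0.05 (-0.23 to 0.13), endothelial cells at 0.23 (0.07 to 0.40) and pericytes at -0.23 (-0.44 to -0.03) differed little or in the other direction. Higher Stat3 in AD was therefore clearest in dFBs, KCs and lymphatic endothelial cells, and the differences between types were not tested. The melanocyte gate held unlike cells, and 30.9% of Ctrl and 31.0% of AD melanocytes had a Stat3 UMI after thinning. Such shares were 14.1% (12.5 to 15.9) and 27.1% (22.5 to 32.1) in KCs. In lymphatic endothelial cells they were 22.3% (17.0 to 28.3) and 32.5% (27.0 to 38.4), with overlapping intervals. After thinning to 1000 UMIs, 21.6% (20.6 to 22.7) of Ctrl and 39.9% (38.5 to 41.4) of AD dFBs had a Stat3 UMI, against 79.6% and 91.5% before it.

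Stat5a, which acts downstream of interleukin 2, interleukin 7, thymic stromal lymphopoietin and growth hormone, was highest in T cells and adipocytes. T cells held 73.8 CPM (61.7 to 87.5) in Ctrl and 71.1 CPM (61.2 to 82.2) in AD, and AD adipocytes held 82.6 CPM (70.3 to 96.4). dFBs stood at 31.1 CPM and 43.5 CPM with a log2 ratio of 0.47 (0.38 to 0.58), and KCs at 13.4 CPM and 17.8 CPM. T cells, the main type with the highest level in both libraries, thus showed a ratio near 0, at -0.05 (-0.38 to 0.28). Endothelial cells had 19.98 CPM on 26 UMIs and 37.4 CPM on 57 UMIs, a ratio of 0.87 (0.21 to 1.63). Macrophages at 28.8 CPM and 30.8 CPM had 0.09 (-0.47 to 0.66).

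Socs3, the feedback gene that binds gp130 and JAK1 and JAK2, differed most between the libraries. Its UMIs in kept cells numbered 38443 in Ctrl and 127185 in AD, or 365 CPM and 2063 CPM. In the gated types of Ctrl the order was set by vessels and nerve sheath, with endothelial cells at 1306 CPM (1245 to 1369.5), Schwann cells at 925 CPM (841 to 1015) and lymphatic endothelial cells at 690.4 CPM (647 to 736), each clear of the next. Pericytes at 533 CPM and dFBs at 504 CPM (498 to 510.2) followed, then macrophages at 227 CPM, KCs at 111 CPM and T cells at 76.0 CPM. Langerhans cells at 66.1 CPM, melanocytes at 56.4 CPM and mast cells at 47.2 CPM overlapped with T cells at the low end. With types taken from clusters, Ctrl endothelial cells held 658 CPM. That was still first of the 5 main types, but below the gated Schwann and lymphatic endothelial levels.

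In AD, dFBs stood first at 2605 CPM (2589 to 2622), above Schwann cells at 1929 CPM (1768 to 2102), lymphatic endothelial cells at 1809.8 CPM (1756 to 1865), endothelial cells at 1621 CPM (1558 to 1686) and adipocytes at 1554 CPM (1499 to 1610.2). Neutrophils held 1259.9 CPM, macrophages 865 CPM (820.1 to 911), KCs 712 CPM (689 to 735) and T cells 161 CPM (146 to 177). Socs3 was thus higher in AD in all 9 types measured in both libraries. Its spread over types in AD was 16.2-fold against 27.7-fold in Ctrl, where the lowest class, mast cells, had no AD counterpart.

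With 1 CPM added, the Socs3 level was 5.16-fold higher in AD in dFBs (log2 ratio 2.37, 2.35 to 2.39), 6.36-fold in KCs (2.67, 2.61 to 2.75), 3.80-fold in macrophages (1.93, 1.78 to 2.09) and 2.10-fold in T cells (1.07, 0.80 to 1.37). Endothelial cells, the highest type in Ctrl, had a log2 ratio of 0.31 (0.22 to 0.40), which was 0.98 when the type was taken from clusters. Melanocytes had the largest, 4.19 (3.75 to 4.72), on 42 and 292 UMIs, while lymphatic endothelial cells had 1.39 (1.29 to 1.49), Schwann cells 1.06 (0.88 to 1.25) and pericytes 1.01 (0.87 to 1.15). The melanocyte gate held unlike cells in the libraries, and no other setting was run for that ratio. Endothelial cells were thus the one type of the 9 below 2-fold before any allowance for RNA from dFBs. The differences between types were not tested.

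RNA released by the many dFBs can enter other droplets. Judged from fibroblast marker RNA there, dFB RNA would bring 25.04 CPM of Socs3 to AD KCs, 31.9 CPM to AD T cells, 71.6 CPM to AD macrophages and 154 CPM to AD melanocytes, against 4.92 CPM, 8.20 CPM and 12.4 CPM in Ctrl KCs, T cells and macrophages. These amounts lie below the measured levels in each case and, of these classes, were largest relative to the level in AD T cells. The same estimate gave 29.8 CPM and 157 CPM in Ctrl and AD Schwann cells and 8.77 CPM and 139 CPM in pericytes. With these amounts taken off, Socs3 would lie below 2-fold in T cells, Schwann cells and pericytes as well as endothelial cells. After thinning to 1000 UMIs, a Socs3 UMI was found in 29.7% (28.6 to 30.9) of Ctrl and 69.7% (68.3 to 71.0) of AD dFBs and in 9.35% (7.99 to 10.9) and 41.4% (36.1 to 46.8) of KCs. It was found in 13.3% (10.1 to 16.9) and 46.7% (39.3 to 54.2) of macrophages, in 6.38% (4.35 to 8.99) and 11.2% (8.11 to 15.0) of T cells and in 56.0% (48.3 to 63.5) and 59.2% (50.8 to 67.2) of endothelial cells. The intervals of the libraries were thus apart in dFBs, KCs and macrophages and overlapped in T cells and endothelial cells. Without thinning, 70.3% and 92.2% of dFBs, 47.8% and 80.2% of KCs and 20% and 49.3% of T cells had a UMI, the T cells at a median depth of 3162 and 6203 UMIs.

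The spread among single dFBs was wide. The median Ctrl dFB held 203 CPM of Socs3 and the median AD dFB 1707 CPM, with upper quartiles of 667 CPM and 3951 CPM. The tenth of cells with the most UMIs of the gene held 51.0% of its dFB UMIs in Ctrl and 37.2% in AD, so the AD level was less concentrated in few cells. Socs3 is also known to respond quickly when cells are handled. A set of 15 immediate early and dissociation-related genes, put together after the data were seen and of which Junb is also a STAT target, summed to 26350 CPM in Ctrl and 41747 CPM in AD dFBs and to 16183 CPM and 26933 CPM in KCs, with 5 members at least 2-fold higher in each and 0 lower in dFBs and 1 lower, Nr4a1, in KCs. In macrophages the sum went from 28477 CPM to 20126 CPM and in endothelial cells from 27299 CPM to 20069 CPM, with 1 member higher in each and 5 and 3 lower, while Socs3 was higher there in AD. In T cells the sum was 8761 CPM and 7788 CPM, with 1 higher and 2 lower. Its part in the Socs3 values was not tested.

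Socs1, the inhibitor of JAK1, JAK2 and TYK2 known from interferon and interleukin 4 signalling, was highest in T cells, at 74.9 CPM (62.7 to 88.7) in Ctrl and 97.2 CPM (85.5 to 110.0) in AD. dFBs came next in AD at 66.4 CPM (63.8 to 69.1), from 37.9 CPM (36.3 to 39.6) in Ctrl, a log2 ratio of 0.79 (0.72 to 0.89). KCs went from 13.4 CPM to 41.6 CPM, a ratio of 1.56 (1.38 to 1.88). The T cell lead was clear of dFBs in both libraries before thinning. When each cell was thinned to 1000 UMIs, dFBs led the 5 main types in AD at 66.8 CPM. A UMI was then found in 5.96% (5.28 to 6.70) of AD dFBs and 4.90% (2.88 to 7.73) of AD T cells. The T cell ratio of 0.37 (0.07 to 0.69) became -0.35 with that thinning. Macrophages had 24 UMIs in Ctrl and 55 in AD, 11.5 CPM and 33.9 CPM, with a ratio of 1.48 (0.84 to 2.31) that was 0.54 after thinning. Endothelial cells were low, at 12.3 CPM and 15.1 CPM.

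Cish, a SOCS family gene that STAT5 induces and that dampens interleukin 2 receptor signalling, was the most T cell-weighted of the feedback genes. T cells held 206 CPM (186 to 228) in Ctrl and 288 CPM (267 to 309) in AD, each clear of the next class, with a log2 ratio of 0.48 (0.30 to 0.66). Second came endothelial cells at 73.0 CPM in Ctrl and adipocytes at 185 CPM (167 to 205) in AD. T cells and adipocytes were also the classes that led for Stat5a.

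dFBs went from 24.2 CPM (22.9 to 25.5) to 81.8 CPM (78.9 to 84.8) of Cish, a log2 ratio of 1.72 (1.67 to 1.85). The KC ratio was -0.14 (-0.32 to 0.03), from 65.0 CPM to 58.9 CPM, but 0.60 after thinning to 1000 UMIs, and endothelial cells at 0.06 (-0.34 to 0.47) and macrophages at 0.48 (-0.08 to 1.06) had intervals that reached 0. KCs accounted for 34.5% of the Cish UMIs in Ctrl and 5.35% in AD, and dFBs for 28.7% and 51.8%, with far fewer KCs in AD. In thinned cells a Cish UMI was found in 16.8% (13.5 to 20.5) of Ctrl and 25.6% (21.1 to 30.6) of AD T cells and in 1.95% (1.61 to 2.34) and 8.55% (7.74 to 9.41) of dFBs, against 43.8%, 72.9%, 16.5% and 40.6% before thinning. An antisense gene, Gm17041, lies across 1459 bases of Cish.

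**Figure D3:**
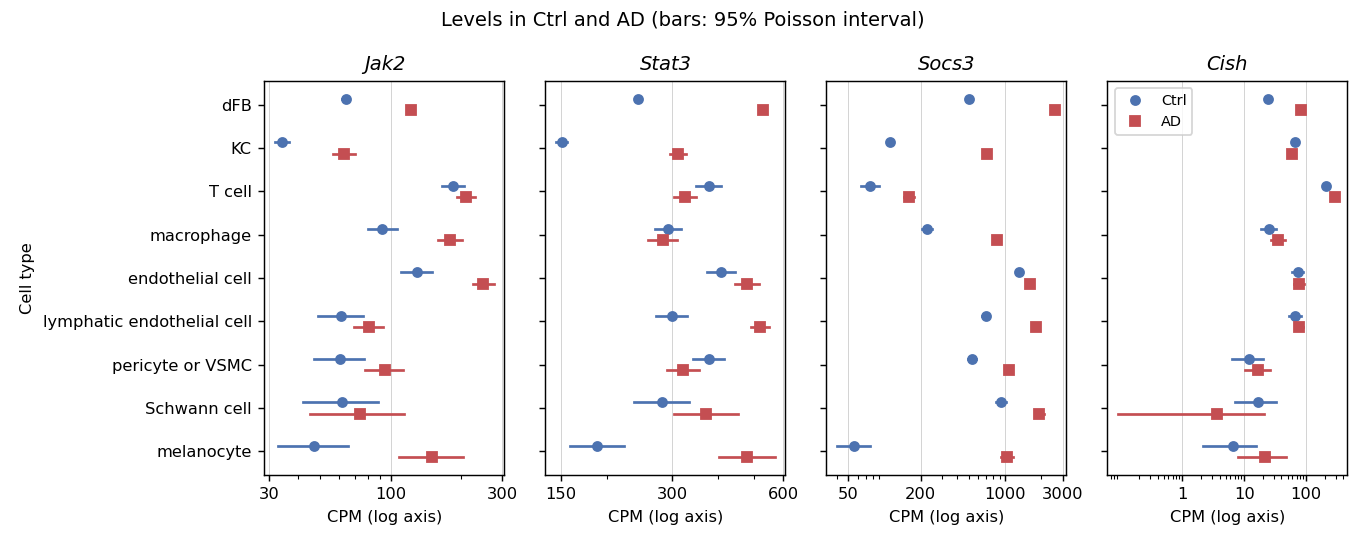
Levels of Jak2, Stat3, Socs3 and Cish (x axis, CPM, log axis) in the 9 cell types with at least 50 cells in both libraries, circles for Ctrl and squares for AD, with 95% Poisson intervals. The Socs3 squares lie to the right of the circles in all 9 types, and the Cish markers of dFBs lie at 24.2 CPM and 81.8 CPM while those of KCs nearly coincide.

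A gene was counted as apart where its level was at least 2-fold higher or lower in AD and at least 20 CPM in either library. In dFBs 3 of the 7 members that passed the minimum were higher (Stat3, Socs3 and Cish) and 0 lower, against 7.31% higher and 12% lower among 7004 genes. In KCs 3 of 6 were higher (Stat3, Socs1 and Socs3) and 0 lower, against 5.36% and 9.81% of 7034 genes. In macrophages 2 of 8 were higher (Socs1 and Socs3) and 0 lower, against 5.62% and 9.61% of 6475 genes. Socs3 was the one gene counted in all 3 types.

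T cells had 1 of 8 members higher, Socs3, and 0 lower, against 2.47% and 8.5% of 6479 genes, and the count was 0 under 4 of the other settings tried. Socs3 would also lie below 2-fold there with the estimated dFB RNA taken off. Endothelial cells had 0 of 6 in either direction, against 4.22% and 8.47% of 6750 genes. The median log2 ratio of the members was 0.91 in dFBs, 0.95 in KCs, 0.29 in macrophages, 0.43 in endothelial cells and 0.07 in T cells, beside medians of -0.05, -0.13, -0.04, -0.13 and -0.22 over all genes counted. The feedback genes and Stat3 thus made up the counts with these settings. Jak2 lay close to 2-fold and passed it in dFBs with all deposited barcodes (1.07) and in macrophages (1.00) and endothelial cells (1.02) without mitochondrial and ribosomal protein genes in the scaling, and Tyk2 stood at -1.19 in T cells after thinning.

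**Figure D4:**
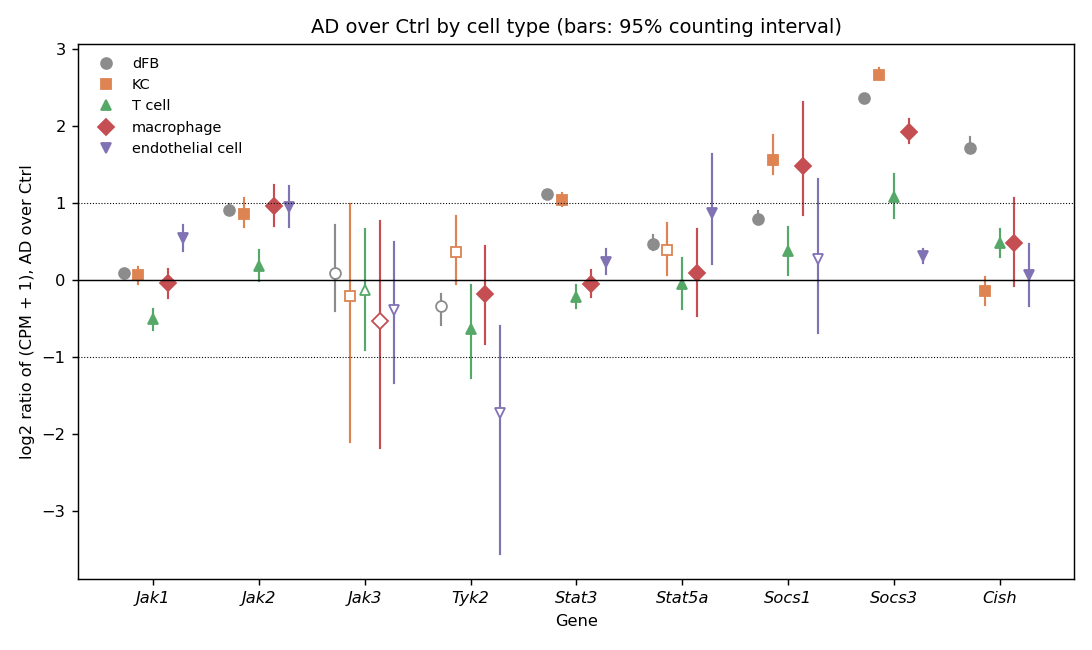
Log2 ratio of (CPM + 1) in AD over Ctrl (y axis) for each gene in 5 cell types, with bars for the 95% counting interval, dotted lines at 2-fold, and hollow symbols where both levels were under 20 CPM. Socs3 lies above the upper dotted line in dFBs, KCs, T cells and macrophages, and Jak1 lies between -0.51 and 0.54.

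The dFBs of the libraries hardly shared clusters when cells were clustered without the 9 genes, so the main Ctrl and AD clusters were compared as ranges, with no test, and clusters of 1 library are not replicates. The Ctrl clusters held 450 to 2295 dFBs and the AD clusters 230 to 1356. Socs3 ranged from 176 CPM to 979 CPM over 5 Ctrl clusters and from 1415 CPM to 3554 CPM over 5 AD clusters, and Stat3 from 199 CPM to 310.4 CPM and from 487 CPM to 623 CPM. For both genes the ranges did not overlap, so their higher levels were found across AD fibroblasts rather than in 1 cluster.

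The ranges of the other members overlapped. Jak1 ran from 150.2 CPM to 542 CPM in Ctrl clusters and from 256 CPM to 379.5 CPM in AD clusters. Jak2 ran from 39.0 CPM to 109 CPM in Ctrl and from 57.8 CPM to 311 CPM in AD, with the highest levels in an AD cluster led by Prdm1 and Ednrb (311 CPM) and one led by Tnc, Grem1 and Cyp24a1 (191 CPM). These 2 clusters had the lowest Socs3 of the AD fibroblasts, 1415 CPM and 1485 CPM. Cish ran from 8.74 CPM to 66.6 CPM and from 29.0 CPM to 120.2 CPM, with the top value in a cluster led by Ptgs2 and Ptx3, which also had the top Socs3. Stat5a was highest, at 115 CPM, in a Ctrl cluster led by Rspo3, Hhip and F5, which also had the highest Cish of the Ctrl clusters at 66.6 CPM. The AD clusters did not share that pattern. Their highest Stat5a, 65.5 CPM, was in the cluster led by Tnc, Grem1 and Cyp24a1, with 39.8 CPM of Cish. The AD cluster with the top Cish held 59.2 CPM of Stat5a.

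**Figure D5:**
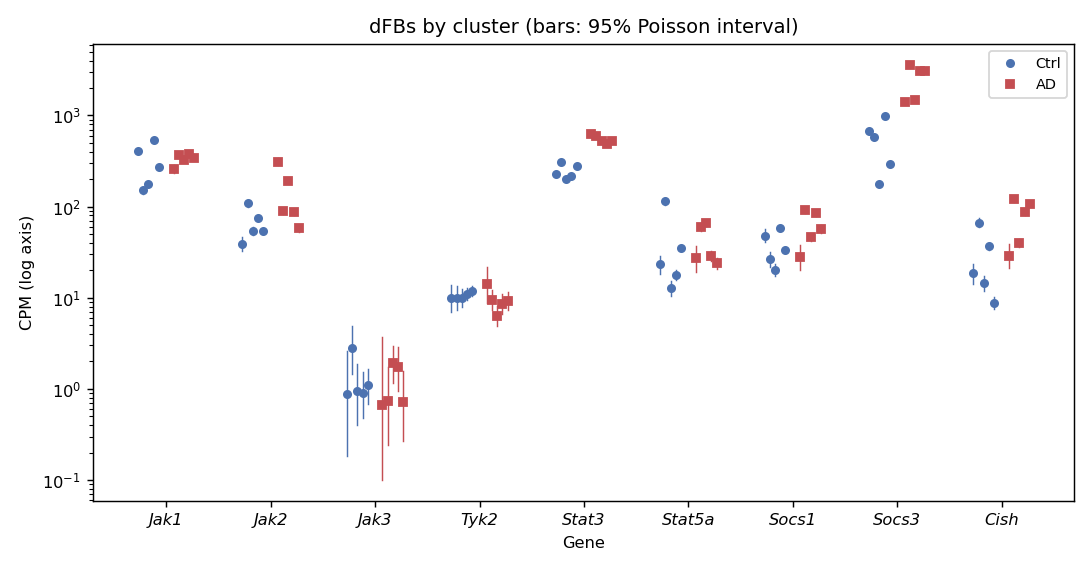
Level of each gene (y axis, CPM, log axis) in the main dFB clusters, 1 point per cluster, circles for Ctrl and squares for AD, with 95% Poisson intervals. The squares lie above all circles for Stat3 and Socs3, and the ranges overlap for the other genes.

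The KC gate held different layers in the 2 libraries, since KCs with no UMI of the differentiation genes Krt1, Krt10 or Krtdap made up 19.4% of Ctrl and 59.8% of AD KCs. Within these 325 and 220 cells Socs3 stood at 125 CPM (113 to 138) and 849 CPM (814 to 885), a log2 ratio of 2.75. Stat3 stood at 146 CPM and 342 CPM, a ratio of 1.22, and Socs1 at 15.8 CPM and 50.4 CPM, a ratio of 1.61. The 3 ratios were thus as large within KCs that lacked these transcripts. In AD, KCs with such a UMI had less Socs3 than those without, 575 CPM (546 to 605) against 849 CPM, while in Ctrl the levels were 109 CPM and 125 CPM. Cish was 63.5 CPM and 72.3 CPM in the KCs without these transcripts, a ratio of 0.18.

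Regulatory T cell-like cells (Foxp3 and at least 3 of 5 markers) numbered 76 in Ctrl and 47 in AD, beside 394 and 300 other T cells. In Ctrl they held more Jak2, 356 CPM (289.7 to 433) against 153 CPM (134 to 174), and more Stat5a, 160.2 CPM (117 to 214) against 57.7 CPM (46.2 to 71.1). Jak1, at 445 CPM and 456 CPM, differed by less than its counting error. In AD the Jak2 levels of 233 CPM and 207 CPM and the Stat5a levels of 67.4 CPM and 71.7 CPM did not stand apart.

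The feedback genes went the other way in AD regulatory T cell-like cells. Socs3 stood at 84.3 CPM (56.9 to 120.3) against 173 CPM (156 to 191) in the other T cells, Socs1 at 47.8 CPM (27.8 to 76.5) against 105 CPM (92.1 to 119), and Cish at 197 CPM against 302 CPM. In Ctrl the intervals of the 3 feedback genes overlapped. There Cish stood at 246 CPM (191 to 311) in regulatory T cell-like cells against 199 CPM (177 to 223). Socs3 stood at 57.0 CPM against 79.6 CPM and Socs1 at 49.8 CPM against 79.6 CPM. Without the regulatory T cell-like cells, the T cell log2 ratios were 1.11 for Socs3, 0.60 for Cish, 0.43 for Jak2 and -0.48 for Jak1. The median depth of T cells differed between libraries in both parts, at 3095 and 5303 UMIs in regulatory T cell-like cells.

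The receptor chains that carry the JAKs were counted from lists of the pathway, with the same minimum and the shares over all genes given above. Of 8 chains of the gp130 group, 6 passed in dFBs and 3 were higher in AD: Osmr, the oncostatin M receptor, from 69.1 CPM to 215 CPM, Il31ra, the interleukin 31 receptor, from 26.2 CPM to 93.0 CPM, and Lifr from 45.4 CPM to 102 CPM. Il11ra1 was lower, from 377 CPM to 103 CPM. In KCs Osmr (22.9 CPM and 113 CPM) and Lifr (28.6 CPM and 85.4 CPM) were higher and Cntfr and Il6ra lower, of 6. Osmr and Lifr were thus higher in both dFBs and KCs, the types in which Stat3 was counted. Lifr lay just under 2-fold in endothelial cells, where Stat3 was not counted, at 212 CPM and 414 CPM. Its log2 ratio there was 0.96 (0.76 to 1.18), and that of Osmr was 0.27 (0.03 to 0.52). In T cells Il27ra was lower, of 3, and in macrophages and endothelial cells 0 of 4 and 0 of 5 were counted.

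Of 11 chains of the common gamma chain and type 2 group, Il4ra, the interleukin 4 receptor alpha chain, was higher in dFBs (97.2 CPM and 214 CPM, 1 of 3), in KCs with Il13ra1 (10.0 CPM and 32.4 CPM for Il4ra, 2 of 2) and in endothelial cells with Il2rg (99.9 CPM and 218 CPM for Il4ra, 2 of 4). Il7r was higher in macrophages, at 19.7 CPM and 139 CPM, 1 of 6. T cells, which express most of this group, had 0 of 8 in either direction and a median of 0.06. Of 10 interferon and interleukin 10 group chains, Ifnar2 was higher in KCs (1 of 4), Il10rb lower in T cells (1 of 6) and endothelial cells (1 of 5), and none of 5 in dFBs or 6 in macrophages was counted.

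Among 11 chains of the beta common and homodimer group, which signal through JAK2, Ghr, the growth hormone receptor, was higher in dFBs (139 CPM and 378 CPM), and Lepr, the leptin receptor (208 CPM and 80.3 CPM), and Il3ra were lower, of 4. Csf2rb, the beta common chain, was higher in endothelial cells (69.2 CPM and 353 CPM, with Csf2rb2 and Ghr, 3 of 4) and in macrophages (77.8 CPM and 168 CPM, with Csf2rb2 and Ghr), where Prlr, Il3ra and Csf3r were lower, of 7. In KCs 0 of 2 and in T cells 0 of 1 were counted. Csf2rb and Csf2rb2 were thus higher in both macrophages and endothelial cells. For Ghr in AD macrophages, dFB RNA would bring 10.4 CPM of 22.2 CPM (36 UMIs), and without it the gene would lie under the minimum.

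Of 18 ligands of these receptors, few passed the minimum in any type. In dFBs Il6 (197 CPM and 727 CPM) and Lif (16.2 CPM and 57.1 CPM) were higher, 2 of 2. In KCs Tslp, which encodes thymic stromal lymphopoietin, stood at 1.86 CPM and 219 CPM and Il6 at 5.06 CPM and 30.9 CPM, 2 of 2. In T cells Il4 stood at 3.35 CPM and 71.5 CPM, on 6 and 184 UMIs, and Il4, Lif and Il6 were higher and Ifng lower (157 CPM and 60.6 CPM), of 7. Type 2 and interleukin 6 group cytokines were thus the ones higher in these 3 types. Macrophages had higher Osm (24.0 CPM and 246 CPM) and Il6 and lower Il10 (142 CPM and 43.1 CPM), Ifnb1 and Tslp, of 5, and endothelial cells had higher Il6 (347 CPM and 934 CPM) and Il15 and lower Il7, of 3. By the same estimate dFB RNA would bring 6.99 CPM of Il6 to AD KCs and 8.91 CPM of the 33.8 CPM in AD T cells. That estimate uses the median fibroblast marker, which in AD T cells stood at 1.22% of its dFB level. The highest marker stood at 2.99% and would bring more, and its part in the T cell count of Il6 was not tested.

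Few of the other family members were counted. Stat2, which carries type I interferon signals, was lower in macrophages (87.4 CPM and 35.7 CPM). Of 5 further SOCS genes, Socs2, which restrains growth hormone signalling, was higher in dFBs (77.6 CPM and 170.1 CPM, 1 of 5), KCs (9.96 CPM and 37.6 CPM, 1 of 5) and macrophages (4.80 CPM and 24.7 CPM, 1 of 4), with 0 of 3 in T cells and 0 of 5 in endothelial cells. Of 12 phosphatases, PIAS proteins and other inhibitors, Ptpn6 was lower in T cells (93.3 CPM and 28.8 CPM, 1 of 10) and Usp18 in macrophages (1 of 11), and 0 of 7 were counted in each of dFBs, KCs and endothelial cells. None of these SOCS genes and inhibitors but Socs2 was counted as higher in any of the 5 types.

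Of 20 genes known as STAT targets, 7 of 16 were higher in dFBs and 2 lower, with a median log2 ratio of 0.54 against -0.05 over all genes counted. Myc (102 CPM and 664 CPM), Cebpd (725 CPM and 2724 CPM), Pim1 (406 CPM and 1483 CPM) and Fgl2 (771 CPM and 2358 CPM) were the largest, and the interferon genes Ifit1 and Isg15 were the lower ones. In KCs 6 of 11 were higher, led by Cebpd (73.0 CPM and 624 CPM), Bcl3, Irf1 and Myc, and 0 lower, with a median of 1.03. Estimated as for Socs3, dFB RNA would bring 22.7 CPM of the 29.2 CPM of Fgl2 in AD KCs, which is most of that level. In T cells 1 of 15 was higher, Cebpd (34.1 CPM and 90.6 CPM), of which dFB RNA would bring 11.8 CPM and 33.4 CPM by the median fibroblast marker and up to 81.5 CPM in AD by the highest, and its part in the count was not tested. Macrophages had 3 higher (Osm, Myc and Hif1a) and 3 lower of 18, namely Retnla (3837 CPM and 74.0 CPM), Ifit1 (645 CPM and 74.0 CPM) and Isg15 (251 CPM and 106 CPM), and endothelial cells had Myc higher and Irf9 lower of 15.

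Genes with a like pattern were sought over the 22 classes among 14007 genes, by Pearson correlation of log2(CPM + 1), which is a description because classes of 1 library share its depth and treatment. Socs3 was most like Cebpd (0.95), Slc10a6 (0.92) and Sbno2 (0.91). Stat3 was most like Bcl3 (0.86), Tcp11l2 (0.82) and Ccno (0.80). Both of these leading genes, Cebpd and Bcl3, stand in the list of STAT targets. Jak1 was most like Ctla2a (0.85), Helz2 and Pitpnc1 (0.81 each), Jak2 like Plscr1 (0.83), Gna13 and Mir155hg (0.80 each), and Tyk2 like Cd72 (0.88), Slamf7 (0.84) and P2ry14 (0.82).

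Jak3 was most like Ctla2b (0.83), H2-Q6 (0.82) and H2-Q7 (0.80), on levels that rest on few UMIs. Cish was most like Ppp1cc (0.80), Pdcd4 (0.79) and H2-K1 (0.78), Stat5a like Abhd15 (0.76), Sytl3 and Idnk (0.72 each), and Socs1 like Nfkb1 (0.70), Chd2 and 4930523C07Rik (0.69 each). Among the 36 pairs of the 9 genes, Stat3 and Socs3 were most alike (0.78), followed by Jak3 and Cish (0.66) and Stat5a and Cish (0.62), and Tyk2 and Socs3 were most unlike (-0.58).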

How the data were processed

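The authors deposited 1 matrix of UMI counts per library, made with Cell Ranger from 10x 3′ v3.1 libraries of dissociated skin and not normalized. The file header names Cell Ranger 5.0.0, the submitters' processing notes name 3.1.0, Seurat 5.0 and the build mm10, and the methods a later version, so the version is uncertain. The labels name collagenase D, the methods collagenase IV.

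Barcodes needed 200 to 6000 detected genes, with mitochondrial transcripts (13 genes) at 10% of UMIs or less. A cell passed a gate with at least 40% and at least 3 of a type's markers, 10 points above every unrelated list (25 for dFBs). Erythroid and B cell gates only set cells aside. This rule was set after the data were seen, and the members and lists were chosen with earlier results of these data known. UMIs were summed per type and library (Python 3.11.15, scipy 1.17.1, scanpy 1.11.5), with 1 CPM added for ratios. Thinning drew 1000 UMIs per cell. Cells that passed a gate without the required margin over unrelated lists, or with a tied related list, were left out as mixed. Genes of like pattern were the 3 highest correlations per member, and pathway genes were named where at least 2-fold apart, up to 4 per list and type. Of the gene IDs, 32475 matched GENCODE M21. No test was possible with 1 library per group, and the scripts were tested on simulated data. UMI depth per library and type set the counting intervals. Counts over the list of further STAT genes are not reported here.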

Additional observations from a re-analysis of the deposited data

How the results depend on the processing

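The settings tried were all deposited barcodes, at least 500 genes and 1000 UMIs per cell, 1 more marker, Leiden clusters, the mean over single cells, doublets left out, thinning to 1000 UMIs, 10 CPM added, and scaling without mitochondrial and ribosomal protein genes. KCs without differentiation transcripts and T cells without regulatory T cell-like cells were added after the data were seen. They were run for dFBs, KCs, T cells, macrophages and endothelial cells, where no log2 ratio of at least 1 in size changed sign, and not for ratios in the other types. The count of members higher in T cells (1) was 0 with all barcodes, Leiden clusters, doublets left out or 10 CPM added, and the count lower (0) was 1 after thinning. In macrophages the count higher (2) was 1 after thinning or at a minimum of 50 CPM. The Socs1 ratio there was past 2-fold in 8 of 9 other settings. In endothelial cells the count higher (0) was 2 after thinning and 1 without mitochondrial and ribosomal protein genes, and the count lower (0) was 1 after thinning and 1 with no minimum. Thinning keeps fewer UMIs, and the cause was not tested in the other cases. The Socs3 ratio ranged from 2.31 to 2.44 in dFBs, 2.05 to 3.23 in KCs, 1.77 to 2.10 in macrophages, 0.60 to 1.28 in T cells and 0.27 to 0.98 in endothelial cells. Scrublet's own threshold marked 3.47% of Ctrl cells and 0 AD cells and so had not worked in AD. The top 5% of scores were left out instead. No paired analysis was possible because each group was 1 library.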
